A study of Homo sapiens with 9 samples.

Results

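The 36 genes described here carry out homologous recombination and the Fanconi anemia pathway of DNA repair. They were chosen by name and known role, with earlier results of these arrays known, and were ordered as BRCA1 and its partners, strand invasion, sensing and end resection, helicases and dissolution, checkpoint kinases, the Fanconi core complex, the FANCD2-FANCI pair and other repair factors. Of these, 32 were measured by a probe paired with 1 gene symbol only, with 1 such probe for every gene, among 18417 genes and 19460 probes tested. BRCA2, RBBP8, FANCA and FANCD2 had no such probe in the annotation used and were not analysed here. The cells were MDA-MB-231, an established triple negative breast cancer line, in which total RNA was measured on Affymetrix Human Gene arrays. Cells were given 2.5 μM SID peptide for 24 hours, the scrambled peptide SCR at the same dose per the methods, or no peptide (UT), with 3 arrays per group and 9 in all. SID peptide is a decoy of the SIN3 interaction domain of MAD1 that occupies the PAH2 domain of SIN3A, a corepressor scaffold, and both peptides were carried into cells by a TAT sequence. All groups carry the label of the same cell line. The methods speak of independent biological replicates, fewer than the 3 arrays per group, without saying which arrays these are. The labels do not say whether cultures were separate, so p-values measure the spread between these samples, which may be technical.

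Homologous recombination repairs a broken chromosome from the sister copy and acts mainly in S and G2 phase. The MRN complex and nucleases resect the ends, BRCA1, PALB2 and BRCA2 prepare the bared strand for invasion of the sister copy with the help of XRCC2, XRCC3 and RAD51C, and helicases such as BLM take the joined molecules apart. In the Fanconi anemia pathway a core complex, with FANCL as its ubiquitin ligase, modifies FANCD2 and FANCI at crosslinks, after which nucleases and recombination complete the repair. Inherited defects in BRCA1, BRCA2 and PALB2 predispose to breast cancer, and tumors with such defects are known for their sensitivity to PARP inhibitors. Many of these genes are transcribed in S phase under E2F factors.

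The 9 arrays fell into separate sets, which decide how each comparison below reads. Replicates 1 and 2 of SID and of SCR correlated at 0.963 to 0.995 with each other, replicate 3 of both groups and the UT arrays at 0.992 to 0.997, and arrays of different sets at 0.908 to 0.929 (Pearson's r across tested probes, which are not independent replicates). Several marker genes differed between these sets, or between SID and SCR within replicates 1 and 2, and others did not. Of 5 markers of this line, VIM, a mesenchymal gene, lay at 12.75 to 13.34 log2 on all arrays. AXL was at 12.95 to 13.31 log2 in replicates 1 and 2 of SID and SCR and at 9.95 to 10.14 log2 elsewhere. For CAV1 these ranges were 13.69 to 13.90 and 11.53 to 11.94 log2, and for EGFR 11.25 to 12.15 and 11.06 to 11.22 log2. The last of the 5, CD44, is given below. Of 4 leukocyte and endothelial markers, PTPRC (4.84 to 5.07 log2) and CD3D (6.58 to 7.02 log2) varied little. CDH5, an endothelial cadherin, was at 7.01 and 7.16 log2 in SID replicates 1 and 2 and at 9.30 to 10.20 log2 on all other arrays, and PECAM1 was at 6.99 and 6.33 log2 in SID replicates 1 and 2 and at 7.96 and 7.65 log2 in SCR replicates 1 and 2, against 5.73 to 6.18 log2 elsewhere. Of 5 luminal genes, limma called GATA3 (-1.03) and FOXA1 (-1.05) lower in SID in replicates 1 and 2, while ESR1, PGR and ERBB2 did not pass. Both also differed between the sets. GATA3 was at 8.74 to 10.05 log2 in replicates 1 and 2 of SID and SCR and at 7.12 to 7.54 log2 elsewhere. FOXA1 was at 8.25 to 9.64 log2 in those replicates and at 9.89 to 10.03 log2 elsewhere. CD44 was at 13.17 and 13.21 log2 in SID replicates 1 and 2 and at 13.25 in both SCR replicates, against 10.68 to 10.84 log2 on the other arrays. EPCAM, an epithelial adhesion gene, was at 9.74 to 10.94 log2 in those 4 arrays and at 6.14 to 6.87 log2 on the rest. CDH1, which encodes E-cadherin, was at 7.05 and 7.26 log2 in SID replicates 1 and 2, at 10.13 and 11.08 log2 in SCR replicates 1 and 2, and at 6.73 to 6.91 log2 elsewhere. CDKN2A, a locus known as deleted in MDA-MB-231 and looked at after the values were seen, was at 7.85 and 7.58 log2 in SID replicates 1 and 2 and at 9.91 and 10.03 log2 in SCR replicates 1 and 2, against 10.96 to 11.21 log2 on the other arrays. Its neighbor MTAP followed the same order of sets. CDKN2A signal on the arrays of replicate 3 and UT, and in SCR replicates 1 and 2, goes against the label. The part of these marker differences in the results below was not tested. Each difference is therefore given for all arrays, for replicates 1 and 2, and for replicate 3.

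To show what these genes carry around their starts, RefSeq promoters of GRCh38.p14 were searched, each running from 250 bases before to 50 after a gene's start. Of the 32 measured genes, 26 had a promoter in the table, with 38 starts in all. An E2F-type run of letters (TTTCCCGC, TTTCGCGC, TTTGCCGC or TTTGGCGC, on either strand) was held by 6 of the 38 starts, of XRCC2, TOPBP1, EXO1, FANCC, MSH6 and RMI1, and by 3.31% of the 35116 promoters in the table. The letters CCAAT on either strand were held by 17 of the 38 starts and by 34.6% of all promoters, and TTTGAA or TTCGAA by 4 of the 38 starts and by 16.4% of all promoters. The first 3 promoters printed here are those of genes with the E2F letters that had large differences or stood highest in their class, with the E2F letters in capitals. BLM is shown as a gene with a large difference and without any of the E2F runs searched, and its capitals mark CCAAT or its reverse complement. Its window does hold GCGGGAA, which lacks only the last letter of the reverse complement of TTTCCCGC. Shorter or looser forms were not searched.
XRCC2 (chr7:152676092-152676391, minus strand): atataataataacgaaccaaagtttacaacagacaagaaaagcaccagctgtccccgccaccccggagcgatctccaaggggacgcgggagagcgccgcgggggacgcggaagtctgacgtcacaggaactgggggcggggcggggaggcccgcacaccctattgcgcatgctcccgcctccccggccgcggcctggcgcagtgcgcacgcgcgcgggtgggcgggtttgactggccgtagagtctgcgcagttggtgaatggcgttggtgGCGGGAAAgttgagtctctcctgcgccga
TOPBP1 (chr3:133661892-133662191, minus strand): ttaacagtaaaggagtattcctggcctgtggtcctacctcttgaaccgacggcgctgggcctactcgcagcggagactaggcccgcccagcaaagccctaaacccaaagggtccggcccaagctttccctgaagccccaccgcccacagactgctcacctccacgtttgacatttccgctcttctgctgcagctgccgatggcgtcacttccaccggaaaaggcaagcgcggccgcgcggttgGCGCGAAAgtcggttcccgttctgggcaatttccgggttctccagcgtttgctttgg
EXO1 (chr1:241847954-241848253, plus strand): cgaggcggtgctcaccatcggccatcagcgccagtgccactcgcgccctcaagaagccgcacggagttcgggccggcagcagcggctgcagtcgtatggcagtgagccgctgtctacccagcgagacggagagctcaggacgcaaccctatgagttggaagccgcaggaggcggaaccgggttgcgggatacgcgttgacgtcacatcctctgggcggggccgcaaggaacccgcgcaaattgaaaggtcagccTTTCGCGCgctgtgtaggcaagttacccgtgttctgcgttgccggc
BLM (chr15:90717096-90717395, plus strand): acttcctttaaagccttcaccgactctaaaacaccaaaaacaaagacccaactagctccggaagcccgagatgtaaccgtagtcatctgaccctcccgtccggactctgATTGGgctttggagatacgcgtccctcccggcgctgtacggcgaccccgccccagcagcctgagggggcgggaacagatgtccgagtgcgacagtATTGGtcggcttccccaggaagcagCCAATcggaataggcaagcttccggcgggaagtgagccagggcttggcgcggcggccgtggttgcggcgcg
In XRCC2 and TOPBP1 the letters stood as the reverse complement, and in EXO1 as written. They began after the start in XRCC2 (position 22) and EXO1 (position 5), and before it in TOPBP1 (position -7). MSH6 and FANCC, which also held the letters at 1 start each, were among the genes with the smallest differences in replicates 1 and 2 (-0.27 and -0.23 log2). The match is a description of these windows and was not tied to binding of any factor.

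With all 9 arrays, SID-treated cells had lower signals than SCR cells for 31 of the 32 genes, yet no gene passed the test. The difference between group means had a median of -0.52 on the log2 scale over the 32 genes and of 0.02 over all tested probes, and RAD50 was the exception at 0.01. Without SID replicate 2 that median was -0.24, and the difference was -0.51 for BRCA1 and -0.74 for XRCC2. A difference below 0 was held by 44.8% of all tested probes. The mean difference was below -1 for 3 genes, XRCC2 (-1.35), BRCA1 (-1.07) and, by the smallest margin, RAD51C, where 1.07% of all tested probes were. No gene was called by limma at an adjusted p under 0.05 with a log2 difference past 1 (lowest adjusted p = 0.657), and 0% of all tested probes were called. At an unadjusted p under 0.05, limma passed 5 of the 32 genes and 1474 of the 19460 probes. A Student's t-test, which the methods name for comparing a pair of groups but not for the arrays, passed 0 and 378. With array weights limma called 6 of the 32 genes and 761 of all tested probes. Without SID replicate 3 it called 9 genes and 648 probes. Without SCR replicate 3 it called 1 gene and 223 probes. The absence of calls thus depended on equal weights and on the replicate 3 arrays. Leaving out 1 of these keeps the other, so treatment and set of arrays are mixed in those counts. The share of cells in each cell cycle phase was not measured on these arrays, and less RNA per cell cannot be told apart from fewer cells in S phase.

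Replicate by replicate the difference was large in replicates 1 and 2 and near 0 in replicate 3. In replicate 1, SID was below SCR for 30 of 32 genes, with a median of -0.63 and 6 genes below -1, whereas 49.4% of all tested probes were lower and 2.44% were below -1. In replicate 2, it was below SCR for 31 genes, with a median of -0.94 and 16 genes below -1, against 39.2% and 5.12% of all tested probes. In replicate 3, SID was above SCR for 27 genes and below for 5, and all 32 lay between -0.15 and 0.41 with a median of 0.12, where 44.9% of all tested probes were below 0. No gene had all SID arrays below all SCR arrays, a pattern held by 1.65% of all tested probes. The replicate 3 arrays also lay close to UT cells. The mean of SID and SCR replicate 3 differed from the UT mean by a median of 0.06 log2 and by at most 0.63, for RAD51C.

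**Figure D1:**
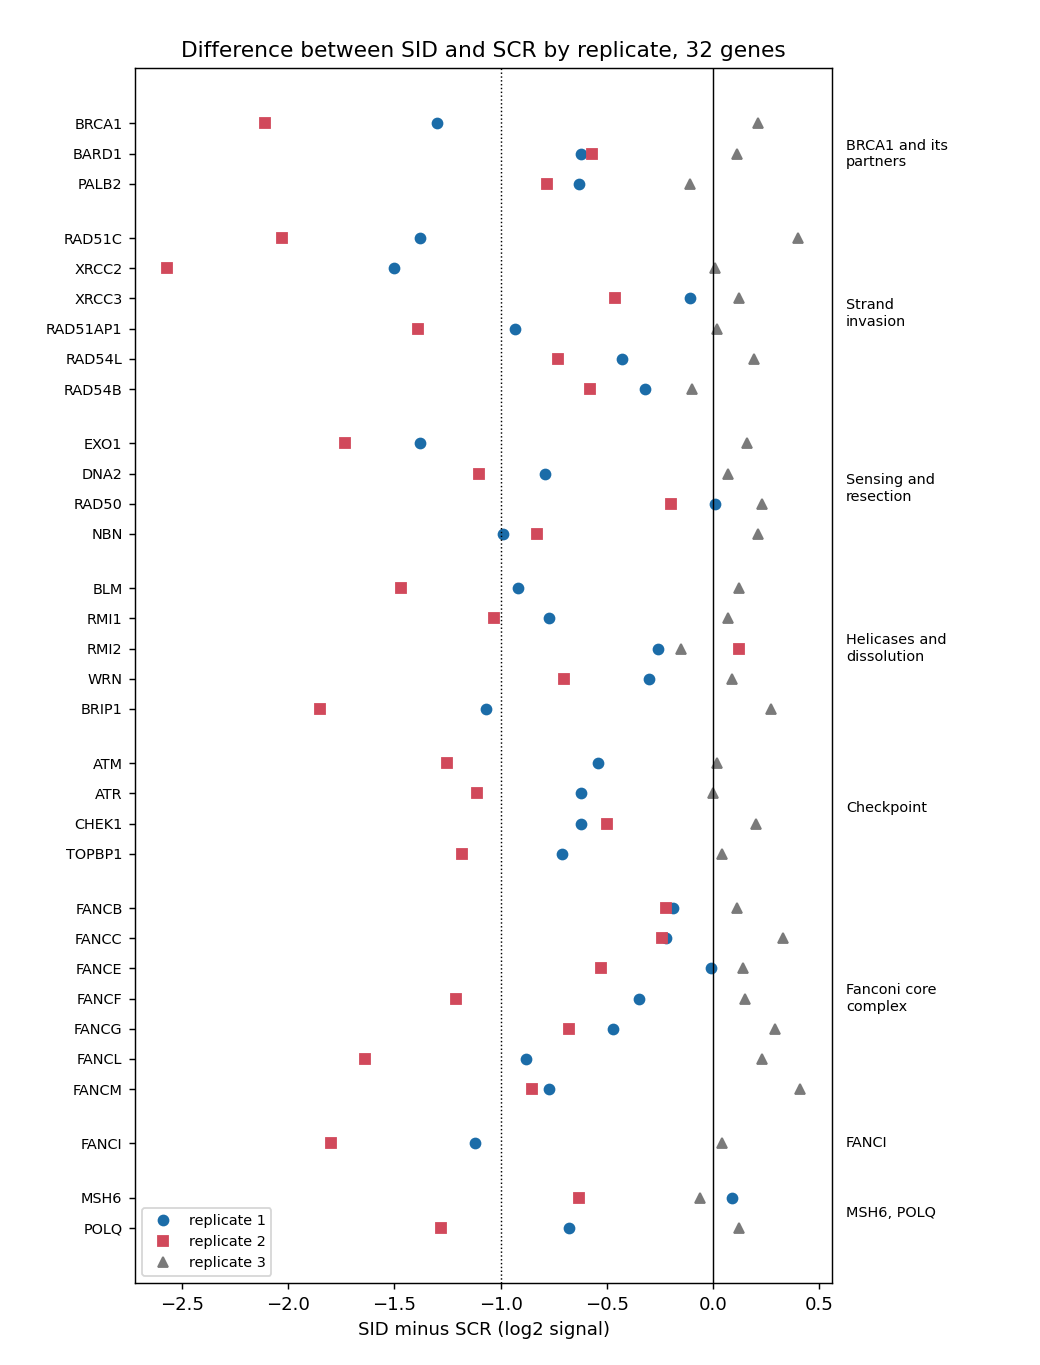
SID minus SCR in log2 signal (x axis) for each of 32 genes (rows, grouped by role), with a point per replicate and a dotted line at -1. Points of replicates 1 and 2 lie left of 0 for most genes, down to -2.57 for XRCC2, and those of replicate 3 lie between -0.15 and 0.41.

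In replicates 1 and 2, the SID mean was below the SCR mean for all 32 genes (41.8% of all tested probes), and 9 were called lower by limma, namely BRCA1, RAD51C, XRCC2, RAD51AP1, EXO1, BLM, BRIP1, FANCL and FANCI. Of all tested probes, 3.31% were called lower and 1.95% higher. The median difference of the 32 genes was -0.84 log2, against 0.04 over all tested probes. By adjusted p alone 23 genes were lower, as were 13.7% of all tested probes. Both SID arrays were below both SCR arrays for 29 of the 32 genes, the exceptions being RAD50, RMI2 and MSH6, and for 26.3% of all tested probes. SID replicate 2 was below SID replicate 1 for 31 genes (43.2% of all tested probes), with a median of -0.44, and SCR replicate 2 was below SCR replicate 1 for 25 genes (56.6% of all tested probes), with a median of -0.09. Accordingly fewer genes and fewer of all tested probes were called without SID replicate 2, and more of both without SID replicate 1. The median over the 32 genes was -0.59 log2 without SID replicate 2 and -1.02 log2 without SID replicate 1. BRCA1, XRCC2, RAD51C, EXO1 and FANCI were called in all 12 other settings tried, BRIP1 and BLM in 11, RAD51AP1 in 9 and FANCL in 8.

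Among BRCA1 and its partners, BRCA1 changed most. BRCA1, a ubiquitin ligase that promotes end resection and brings PALB2 to breaks, was at 8.55, 7.65 and 10.07 log2 in SID replicates 1 to 3, at 9.85, 9.76 and 9.86 log2 in SCR, and at 10.01, 9.80 and 10.06 log2 in UT. SID replicates 1 and 2 were below every other array and SID replicate 3 was the highest array. In replicates 1 and 2 BRCA1 was 3.26-fold lower under SID than under SCR, a log2 difference of -1.70 ± 0.25 (SE, limma, adjusted p = 0.00296). BARD1, the obligate partner of BRCA1, differed by -0.60 log2 (adjusted p = 0.0106), and PALB2, which bridges BRCA1 and BRCA2, by -0.70 (adjusted p = 0.00783), both under the fold limit.

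**Figure D2:**
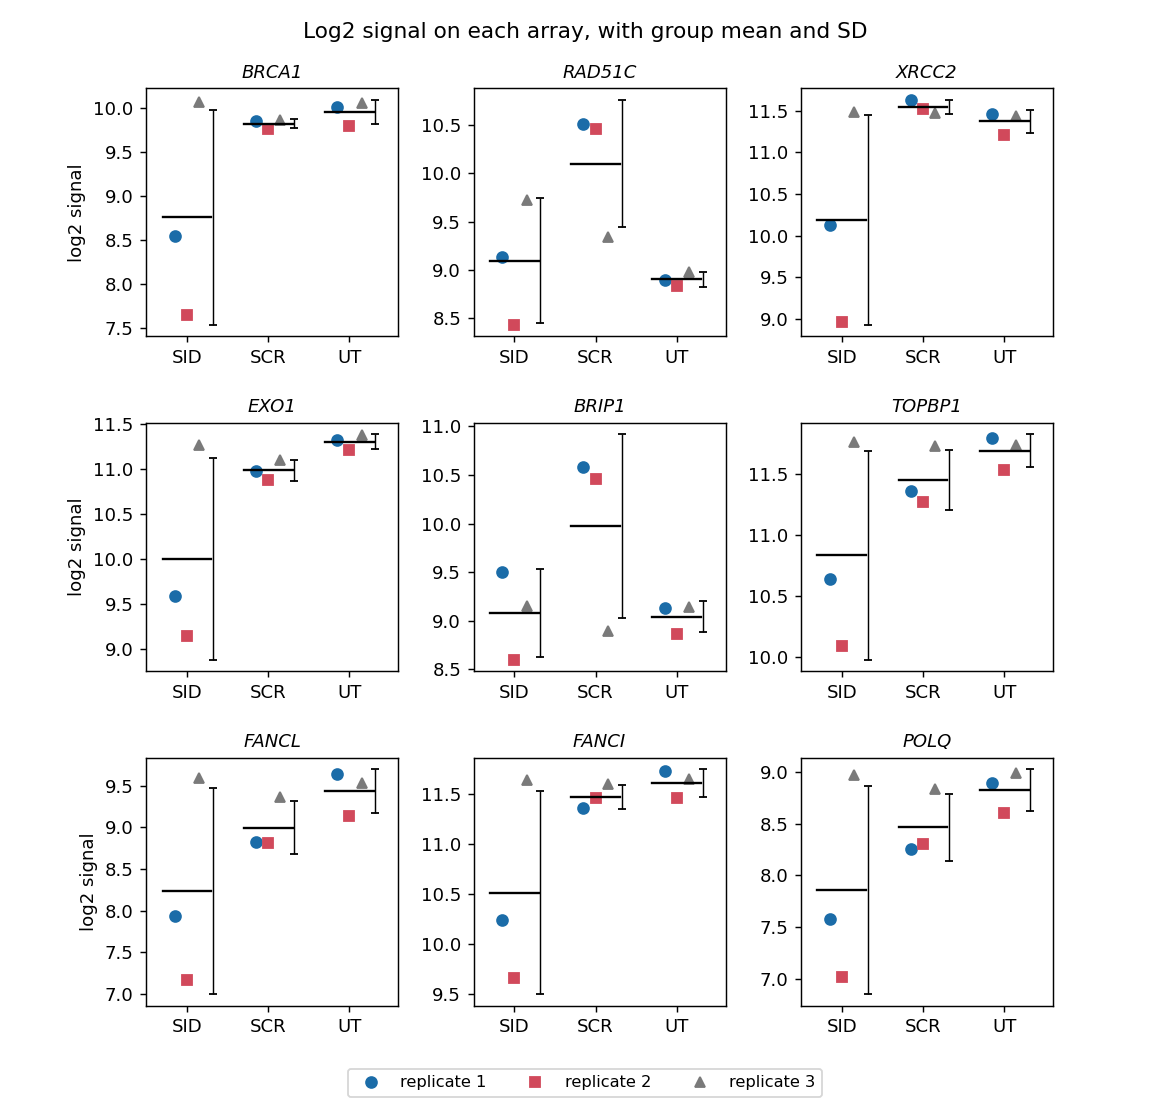
Log2 signal (y axis) of 9 genes in SID, SCR and UT cells, with a point per array, a line at the mean of 3 arrays and a bar for ± 1 SD. In BRCA1, SID replicates 1 and 2 at 8.55 and 7.65 lie below the other arrays, and in BRIP1, SCR replicates 1 and 2 at 10.58 and 10.46 lie above them.

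The genes of strand invasion held the gene with the lowest difference of all 32. XRCC2, which acts in strand invasion in a complex with RAD51C, was at 10.13, 8.96 and 11.48 log2 in SID, at 11.63, 11.52 and 11.47 log2 in SCR, and at 11.46, 11.21 and 11.44 log2 in UT. Only SID replicates 1 and 2 stood apart, below the remaining 7 arrays. The SID level of XRCC2 was 4.1-fold lower in these replicates (-2.03 ± 0.32 log2, SE, limma, adjusted p = 0.00368). RAD51C, which forms complexes with XRCC2 and with XRCC3, was at 9.13, 8.43 and 9.73 log2 in SID, at 10.51, 10.46 and 9.34 log2 in SCR, and at 8.90, 8.83 and 8.98 log2 in UT. Here SCR replicates 1 and 2 were the highest arrays, while SID replicates 1 and 2 lay on either side of UT. The difference between SID and SCR was -1.70 ± 0.20 log2 (SE, limma, adjusted p = 0.00121). RAD51AP1, which stimulates the pairing of DNA strands, was at 9.68, 8.98 and 10.08 log2 in SID, at 10.61, 10.37 and 10.05 log2 in SCR, and at 10.16, 9.96 and 10.05 log2 in UT. SID was below and SCR above the UT arrays in replicates 1 and 2, with a difference of -1.16 ± 0.21 log2 between them (SE, limma, adjusted p = 0.00639). RAD54L, a translocase of strand invasion, passed the adjusted p at -0.58 log2 (adjusted p = 0.00457), and its relative RAD54B (-0.45, adjusted p = 0.0684) and XRCC3 (-0.29, adjusted p = 0.12) did not.

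In sensing and resection, the nuclease EXO1 carried the largest difference. EXO1, which extends resection over long stretches, was at 9.59, 9.14 and 11.26 log2 in SID, at 10.97, 10.87 and 11.10 log2 in SCR, and at 11.32, 11.21 and 11.37 log2 in UT. All 7 other arrays were above SID replicates 1 and 2, and SCR arrays lay below UT. In replicates 1 and 2 EXO1 was 2.94-fold lower under SID than under SCR (-1.55 ± 0.15 log2, SE, limma, adjusted p = 0.000547), the lowest adjusted p of the 32 genes. NBN, the MRN subunit that recruits ATM, was at 10.13, 9.98 and 10.00 log2 in SID, at 11.13, 10.81 and 9.79 log2 in SCR, and at 9.79, 9.76 and 9.91 log2 in UT. SCR replicates 1 and 2 were again the highest, and SID stayed above the UT arrays, so that the difference of -0.91 ± 0.12 log2 (SE, limma, adjusted p = 0.00211) stood beside SCR values above UT. DNA2, a nuclease and helicase of the other long resection route, differed by -0.94 log2 (adjusted p = 0.00767). RAD50, the ATPase of the MRN complex, differed by -0.10 ± 0.14 log2 (SE, limma, adjusted p = 0.694), and its values in SID replicates 1 and 2 (10.38 and 9.99 log2) overlapped those of SCR (10.37 and 10.19 log2).

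The helicases differed among themselves. BRIP1, the BRCA1-bound helicase also known as FANCJ, was at 9.50, 8.60 and 9.15 log2 in SID, at 10.58, 10.46 and 8.89 log2 in SCR, and at 9.13, 8.86 and 9.14 log2 in UT. SID replicates 1 and 2 lay on either side of the UT arrays, and SCR replicates 1 and 2 lay above all others. The difference in replicates 1 and 2 was -1.46 ± 0.26 log2 (SE, limma, adjusted p = 0.00595). BLM, the helicase that dissolves joined molecules and is mutated in Bloom syndrome, was at 9.34, 8.72 and 10.55 log2 in SID, at 10.26, 10.19 and 10.43 log2 in SCR, and at 10.52, 10.27 and 10.51 log2 in UT. The lowest arrays were SID replicates 1 and 2, at -1.19 ± 0.19 log2 from SCR (SE, limma, adjusted p = 0.00395). RMI1 and RMI2, the partners of BLM in dissolution, did not move alike in value, with -0.90 log2 (adjusted p = 0.00796) for RMI1 and -0.07 log2 (adjusted p = 0.761) for RMI2. WRN, the helicase mutated in Werner syndrome, differed by -0.50 log2 (adjusted p = 0.113).

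In replicates 1 and 2 the 4 checkpoint genes were all lower in SID by adjusted p, and none passed the fold limit, while on all 9 arrays their adjusted p was 0.66 to 0.789. TOPBP1, the activator of ATR, was at 10.64, 10.09 and 11.77 log2 in SID, at 11.36, 11.27 and 11.73 log2 in SCR, and at 11.80, 11.54 and 11.74 log2 in UT. SID replicates 1 and 2 were below every other array, and SCR replicates 1 and 2 came next. The difference was -0.95 ± 0.18 log2 (SE, limma, adjusted p = 0.00751). CHEK1, the kinase that ATR activates, was at 11.01, 10.96 and 10.95 log2 in SID, at 11.62, 11.46 and 10.75 log2 in SCR, and at 10.82, 10.68 and 10.78 log2 in UT. All 3 SID arrays were alike and above UT, and SCR replicates 1 and 2 were higher still, at a difference of -0.56 ± 0.10 log2 (SE, limma, adjusted p = 0.0051). The kinases ATM (-0.90 log2, adjusted p = 0.0384) and ATR (-0.87 log2, adjusted p = 0.021), which start the response to breaks and to stalled forks, were lower too.

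In the Fanconi core complex the catalytic subunit differed most. FANCL was at 7.94, 7.17 and 9.59 log2 in SID, at 8.82, 8.81 and 9.36 log2 in SCR, and at 9.64, 9.14 and 9.53 log2 in UT. SID and SCR replicates 1 and 2 were both below the UT arrays, with SID the lower, by -1.26 ± 0.25 log2 (SE, limma, adjusted p = 0.00959). The call of FANCL did not hold in 4 of 12 settings, with adjusted p = 0.0533 on the 4 arrays alone. FANCM, the translocase that anchors the core complex on DNA, differed by -0.81 log2 (adjusted p = 0.0128), FANCF by -0.78 (adjusted p = 0.0399) and FANCG by -0.57 (adjusted p = 0.0216), the last 2 being adaptor subunits. FANCB (-0.21, adjusted p = 0.444), FANCC (-0.23, adjusted p = 0.2) and FANCE (-0.27, adjusted p = 0.217) did not pass. FANCI, which is clamped on DNA with FANCD2 once modified, was at 10.24, 9.66 and 11.64 log2 in SID, at 11.36, 11.46 and 11.60 log2 in SCR, and at 11.73, 11.46 and 11.65 log2 in UT. All other arrays were far above SID replicates 1 and 2, and FANCI was 2.75-fold lower than in SCR (-1.46 ± 0.18 log2, SE, limma, adjusted p = 0.00153).

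Of the other repair factors, POLQ encodes the polymerase of end joining guided by microhomology, a route that cells without homologous recombination lean on. It was at 7.58, 7.02 and 8.97 log2 in SID, at 8.26, 8.30 and 8.84 log2 in SCR, and at 8.89, 8.60 and 8.99 log2 in UT. The lowest arrays were SID replicates 1 and 2, followed by SCR replicates 1 and 2, with a difference of -0.98 ± 0.19 log2 (SE, limma, adjusted p = 0.00931). MSH6, a mismatch sensor, differed by -0.27 log2 (adjusted p = 0.441), with overlapping arrays.

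SID minus SCR in replicates 1 and 2 was also set against that in replicate 3. It was lower for 31 of 32 genes, with a median of -0.92. Replicate 3 holds 1 array of SID and 1 of SCR, so limma took the spread from the other arrays and these lone arrays are assumed to vary like them. Under that assumption 5 genes were called, RAD51C, BRCA1, EXO1, FANCI and NBN, against 3.15% of all tested probes called below 0. The sets were known from the same arrays. More genes and more of all tested probes were called without SID replicate 1, and fewer of both without SCR replicate 1 or SCR replicate 2. The median over the 32 genes was -1.17 without SID replicate 1, -0.89 without SCR replicate 1 and -0.93 without SCR replicate 2.

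Set against UT cells, the genes fell into groups by the position of their SID and SCR values. Of the 29 genes with both SID arrays below both SCR arrays in replicates 1 and 2, 18 also lay below all UT arrays (13.8% of all tested probes held this pattern) and 11 did not (12.5%). The 18 included BRCA1, XRCC2, EXO1, FANCL, FANCI, BLM, ATR and TOPBP1, and their median was -1.17 log2 for SID minus the UT mean and -0.22 log2 for SCR minus the UT mean. The 11 were BARD1, RAD51C, XRCC3, RAD54B, DNA2, NBN, RMI1, BRIP1, ATM, CHEK1 and FANCF, with medians of 0.01 log2 for SID and 0.78 log2 for SCR. In this second group, which the choice of genes not below UT favors, SCR stood above UT, by up to 1.58 log2 for RAD51C and 1.47 log2 for BRIP1, while SID replicates 1 and 2 averaged from -0.41 to 0.24 log2 from UT. Over all 32 genes, SCR replicates 1 and 2 were above all UT arrays for 13 and below all for 13, as were 28.8% and 28% of all tested probes. Both contrasts share the UT arrays, which belong with the replicate 3 arrays by their correlations, so treatment and set of arrays cannot be told apart in them. On all 9 arrays limma called 0 of the 32 genes in SID minus UT (lowest adjusted p = 0.388, 5 genes at an unadjusted p under 0.05, 2432 probes among all tested, of which 0% were called). It likewise called 0 in SCR minus UT (lowest adjusted p = 0.332, 6 genes and 2811 probes at an unadjusted p under 0.05, with 0% of all tested probes called). The median over the 32 genes was -0.38 log2 in SID minus UT and -0.12 log2 in SCR minus UT. The median in SID minus UT was -0.19 without SID replicate 2 and -0.58 without SID replicate 3, and that in SCR minus UT was -0.20 without UT replicate 2. Without SID replicate 3, 10 of the 32 genes and 1946 of all 19460 tested probes were called in SID minus UT. Without SCR replicate 3, these counts were 4 and 1071 in SCR minus UT.

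**Figure D3:**
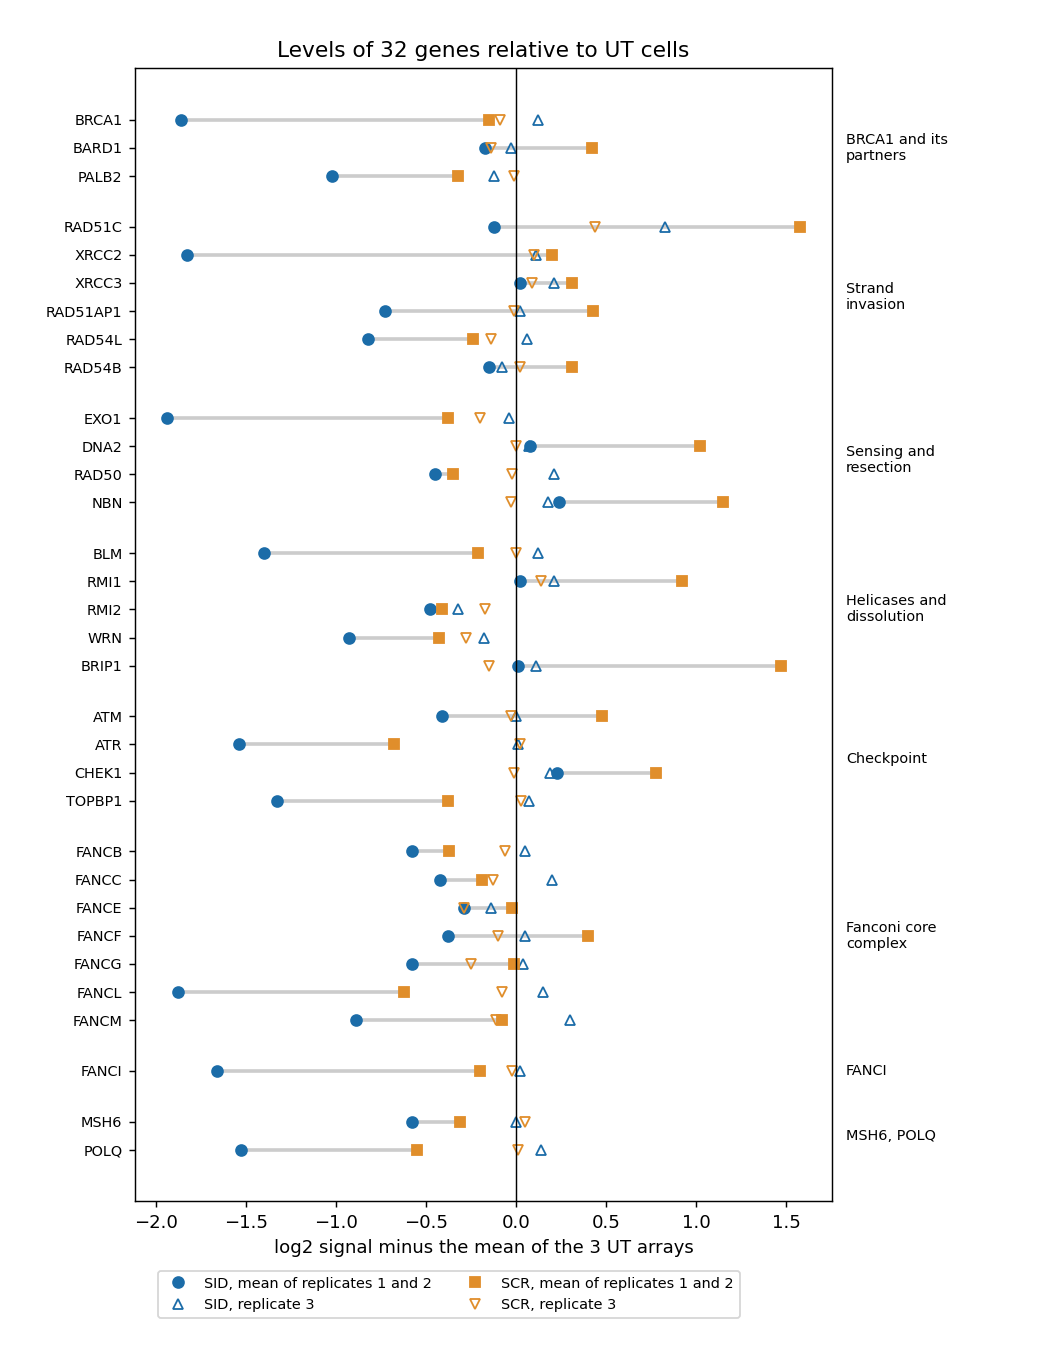
Log2 signal minus the mean of the 3 UT arrays (x axis) for 32 genes (rows, grouped by role), as the mean of replicates 1 and 2 (filled) and as replicate 3 (open) in SID and SCR cells, with a gray line joining the 2 means. For EXO1 the SID mean lies at -1.94 and the SCR mean at -0.38, while for BRIP1 they lie at 0.01 and 1.47.

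Genes of DNA replication had the same direction in replicates 1 and 2, with SID below SCR. The lists were chosen with earlier results of these arrays known and are given as counts, to be read beside the 41.8% of all tested probes that were lower and the 3.31% that were called lower in these replicates. Of 26 measured genes of G1/S and replication, 26 were lower in SID and 16 were called lower, with a median of -1.05 log2. The 3 lowest were CCNE2, a cyclin of S phase entry (-2.71 log2, adjusted p = 0.00156), MCM10 (-1.87 log2, adjusted p = 0.000352) and CDC6 (-1.79 log2, adjusted p = 0.000403), both factors of origin firing and licensing. Of 24 G2/M genes, 18 were lower and 3 called lower, HMMR (-2.31 log2), CENPE (-1.34 log2) and MKI67 (-1.08 log2), with a median of -0.37. Of 16 E2F family and DREAM regulators, 13 were lower and 4 called lower, E2F8 (-1.37 log2), FOXM1 (-1.37 log2), MYBL2 (-1.32 log2) and RBL1 (-1.09 log2).

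Of 53 other measured genes of recombination and crosslink repair, 38 were lower in SID in replicates 1 and 2 and 5 were called lower, with a median of -0.21 log2. These were FIGNL1, an ATPase of recombination (-2.82 log2, adjusted p = 0.000547), CLSPN, the adaptor of CHEK1 activation (-2.27 log2, adjusted p = 0.00197), GEN1, a resolvase (-2.25 log2, adjusted p = 0.0123), HELLS, a chromatin remodeler (-2.15 log2, adjusted p = 0.00683), and MCM8 (-1.44 log2, adjusted p = 0.00198). FIGNL1, CLSPN, GEN1 and HELLS thus had lower differences than any of the 32 genes. Of 15 end-joining genes, 11 were lower and 2 called lower, PRKDC, the kinase of that route (-1.22 log2), and LIG4, its ligase (-1.02 log2), with a median of -0.37. Of 11 targets of the damage response, 7 were higher and 4 lower, where 11322 of all 19460 tested probes were higher. Limma called 1 of them, GADD45A, a growth arrest gene, which was higher in SID (adjusted p = 0.00205). Among all tested probes 1.95% were called higher. By adjusted p alone 2 of the 11 were higher and 3 lower, with MDM2 the lowest (-0.87 log2, adjusted p = 0.000937).

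**Figure D4:**
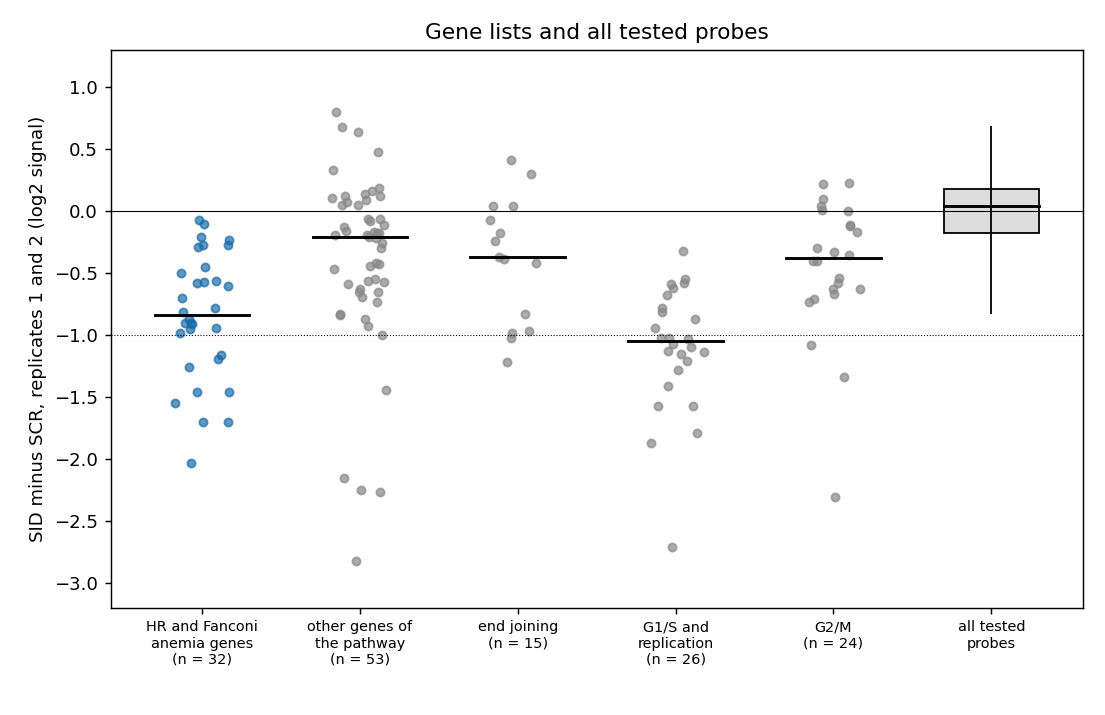
SID minus SCR in replicates 1 and 2, in log2 signal (y axis), for the genes of 5 lists (points, with a line at the median) and for all tested probes (box from the 25th to the 75th percentile, line from the 5th to the 95th). The 32 recombination and Fanconi anemia genes have a median of -0.84, the G1/S and replication genes of -1.05 and all tested probes of 0.04.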

How the data were processed

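The log2 signals per transcript cluster were deposited by the authors, after normalization for which the labels name Affymetrix Expression Console, RMA and Transcriptome Analysis Console without settings. The log2 scale was read from the values. RMA pulls small differences together and reports no depth, so the number of arrays limits the precision. The study's own analysis of single probes was not repeated. Tests ran on the 19460 of 33297 probes that carry 1 gene symbol, and RefSeq held 19429 of these under their Entrez number.

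Linear models of limma 3.58.1 (R 4.3.3) with eBayes were fitted to the 3 groups, and on 5 cells with replicates 1 and 2 of SID and of SCR apart from replicate 3. Benjamini-Hochberg adjustment ran over the 19460 probes. Genes were called at an adjusted p under 0.05 where the log2 difference also passed 1 in size. Values per array are given for the gene of each role with the largest difference in replicates 1 and 2, for BRCA1 and CHEK1, and for each gene called. BRCA2 and FANCD2, also on that rule, had no probe. The genes, lists and tests were chosen with earlier results of these data known. Procedures were tested on simulated data.

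Same-numbered SID and SCR arrays deviated together from the group means (r = 0.77, 0.57 and 0.79), but so did SID replicate 1 with SCR replicate 2 (r = 0.75) and SID replicate 2 with SCR replicate 1 (r = 0.60), so within replicates 1 and 2 the numbers were no closer than crossed ones. UT numbers did not pair with either. A replicate block, array weights, quantile normalization, centring, a filter on dim probes and no fold limit were alternatives. So were leaving out each array and the t-test that the methods name for comparing a pair of groups. In the headings of a supplement, replicate 3 of SID and SCR carries another prefix. SCR replicate 3 is headed there with another time, whereas the labels give 24 hours. Figures were drawn with matplotlib 3.10.9.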

Additional observations from a re-analysis of the deposited data

Results flagged for a closer look

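For 7 of the 32 genes, SID minus SCR in replicates 1 and 2 differed from that in replicate 3 by limma (adjusted p under 0.05 over all tested probes). Probes outside the 32 genes passed the same limit too. The median of this difference was -0.92 log2 over the 32 genes and 0.04 log2 over all tested probes. Replicate 3 has 1 array per peptide, so the 4 residual degrees of freedom come from the other arrays, and the p-values hold only if the lone arrays vary like those. RAD51C stood at -2.10 ± 0.35 log2 (SE, adjusted p = 0.0166), BRCA1 at -1.91 ± 0.44 (adjusted p = 0.0427), EXO1 at -1.71 ± 0.25 (adjusted p = 0.0132), FANCI at -1.50 ± 0.32 (adjusted p = 0.0326) and NBN at -1.12 ± 0.22 (adjusted p = 0.0251). RAD54L at -0.77 ± 0.17 (adjusted p = 0.0349) and CHEK1 at -0.76 ± 0.16 (adjusted p = 0.0362) passed the adjusted p and not the fold limit. The sets of arrays also differed in EPCAM and CD44. CDH1 and CDKN2A differed between SID and SCR within replicates 1 and 2 as well. There CDH1 was at 7.05 and 7.26 log2 in SID and at 10.13 and 11.08 log2 in SCR. CDKN2A was at 7.85 and 7.58 log2 in SID and at 9.91 and 10.03 log2 in SCR. The part of these differences in the 7 values was not tested.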

How the results depend on the processing

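Among the 13 genes given per array, no SID minus SCR difference, on all arrays or in replicates 1 and 2, changed sign in a setting run. Other genes were not rerun one by one. On all 9 arrays, array weights gave 6 genes of the 32 and 761 probes called in SID minus SCR, 9 and 2389 in SID minus UT, and 4 and 2116 in SCR minus UT, where equal weights gave 0. Leaving out an array gave 0 to 9 genes and 0 to 648 probes in SID minus SCR (9 and 648 without SID replicate 3, 1 and 223 without SCR replicate 3), with a median of -0.63 to -0.24. It gave 0 to 10 genes and 0 to 1946 probes in SID minus UT, with a median of -0.58 to -0.19, and 0 to 4 genes and 0 to 1071 probes in SCR minus UT, whose median ran from -0.20 to -0.08. In replicates 1 and 2, no fold limit gave 23 genes and 4840 probes, against 9 and 1024. Leaving out an array there gave a median of -1.02 to -0.59 over the 32 genes. On the 4 arrays of these replicates alone 6 genes and 859 probes were called, and BRIP1, FANCL and RAD51AP1 lost the call. For replicates 1 and 2 against replicate 3, where 5 genes and 948 probes were called, median centring gave 9 genes, the filter on dim probes 10 and array weights 12. No fold limit gave 1460 probes there, and leaving out an array gave 1 to 16 genes and 600 to 1545 probes. The replicate block on SID and SCR called 0 genes and 0 probes and changed no call on the 9 arrays, and with it the 4 arrays of replicates 1 and 2 gave 9 genes and 1011 probes. The causes were not tested. The number of arrays limits all of these, and values near background have no reliable order.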
